A study of Homo sapiens with 6 samples.

Results

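The immunoglobulin chains, the J chain and MZB1 are the main cargo of an antibody-secreting plasma cell and one of its helpers, and they were read here by 120 of the 54613 probe sets of the arrays. A probe set is a group of short probes on the array that together give 1 intensity for 1 target transcript. The members were defined by the platform annotation: every probe set carrying a symbol of an immunoglobulin heavy (IGH), kappa (IGK) or lambda (IGL) gene, of JCHAIN or of MZB1, with IGHMBP2 and FKBP11 left out. Of these, 64 carried 1 gene symbol and 56 carried several.

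The cells were MM1S, an established human multiple myeloma line, which is a cancer of plasma cells and is known to make lambda light chain. RNA from cells labelled normoxia was put on 3 arrays and RNA from cells labelled hypoxia on 3. The treatment text gives hypoxia of 24 h, without an oxygen level, and it is the same on the normoxia samples, so the groups rest on the condition label. All samples come from this single line, and the labels name no cultures behind the replicates. What a p-value measures here is thus the array-to-array spread, and that spread could be purely technical.

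An antibody is built from 2 heavy and 2 light chains. The heavy chain locus supplies the mu, delta, gamma, epsilon and alpha constant regions that set the class, each joined to a rearranged variable region, and a cell normally expresses either kappa or lambda light chains but not both. The J chain links antibodies of the IgA and IgM classes into polymers, and MZB1 is a resident protein of the endoplasmic reticulum (ER) that helps the chaperones there fold and assemble the chains. The lambda-like genes IGLL1 and IGLL5 resemble the lambda constant region, and IGLL1 encodes part of the surrogate light chain of early B cells.

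Among the 27 gene symbols of the members, 3 had an entry among the RefSeq promoter sequences (JCHAIN, MZB1 and IGLL1). The 250 bases before the start of JCHAIN and MZB1 are shown because these are members that a single gene symbol names without ambiguity, one without a called change and one lower in hypoxia. The JCHAIN stretch is chr4:70666509-70666758 and the MZB1 stretch chr5:139389914-139390163, both on the minus strand of GRCh38.p14, and capitals mark a match to the motifs searched.
JCHAIN: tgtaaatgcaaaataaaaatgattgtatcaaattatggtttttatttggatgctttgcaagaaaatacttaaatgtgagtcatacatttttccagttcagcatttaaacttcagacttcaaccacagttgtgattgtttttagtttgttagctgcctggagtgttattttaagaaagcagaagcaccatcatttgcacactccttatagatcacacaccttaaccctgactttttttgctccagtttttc
MZB1: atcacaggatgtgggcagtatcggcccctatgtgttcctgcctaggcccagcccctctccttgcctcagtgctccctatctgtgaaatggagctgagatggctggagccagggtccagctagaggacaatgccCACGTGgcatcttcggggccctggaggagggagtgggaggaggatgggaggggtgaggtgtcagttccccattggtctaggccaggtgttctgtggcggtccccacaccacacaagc
The motifs, read on both strands, were the octamer ATGCAAAT of immunoglobulin promoters and the cores of the hypoxia response element, ACGTG and GCGTG. The MZB1 stretch held ACGTG once on each strand, the matches overlapping at bases 117 to 112 before the start, and the JCHAIN and IGLL1 stretches held none of the 3 motifs. Of 35116 promoter stretches of the same length, 1.63% held the octamer, 18.5% held ACGTG and 32.2% held GCGTG. A match describes the letters only.

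The miRNA symbols MIR8071-1 and MIR8071-2 stand beside heavy chain symbols in the annotation of 211430_s_at and 228518_at, which fell in hypoxia, the latter by more than any other member. In RefSeq both miRNA genes lie among the heavy chain constant regions, on either side of IGHG4 and before IGHG2, and they encode the same mature miRNA. It is printed with its seed in capitals (chr14:105621151-105621170, plus strand, GRCh38.p14, for the copy of MIR8071-1), and no mature miRNA was measured separately here.
hsa-miR-8071: cGGUGGACuggagugggugg

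Levels below are linear intensities as deposited, and a change is the hypoxia mean minus the normoxia mean of log2(intensity + 16). The added 16 makes the changes of dim probe sets look smaller. A probe set was called where the adjusted p of limma, with Benjamini-Hochberg adjustment over all probe sets, was under 0.05. The median intensity of an array was 54.95 to 60.1 and its highest value 16277 to 17537. Intensities of different probe sets do not rank their transcripts. Fewer producing cells and less RNA per cell cannot be told apart in bulk RNA. As a check of the label, all 9 plasma cell markers examined lay above the median on every array, among them XBP1 at 9674 ± 200.3 (SD, n = 3) in normoxia, TNFRSF17 at 9439 in normoxia and SDC1 at 3862. Of the 9, 3 were lower in hypoxia and 0 higher in limma. They were SDC1 at -0.30, CD38 at -0.71 and SLAMF7 at -0.34 on the log2 scale (limma adjusted p = 0.0163, 0.00144 and 0.00947). Of all probe sets, 34.1% were lower at a mean log2 of 8 to 10 and 34.2% at 10 to 12, where these 3 lie. Of the markers of other cell types, 2 of 6 for mature B cells, 2 of 6 for T cells, 1 of 6 for myeloid, 1 of 3 for erythroid, 1 of 5 for stromal and 0 of 5 for epithelial cells were above it on every array. Their summed intensity in normoxia and hypoxia was 500.3 to 519 and 498 to 539 for mature B cells, a sum in which MS4A1 fell (246 to 66.9) while PAX5 rose (85.8 to 303). It was 1222 to 1444 and 1729 to 2065 for T cells, 198 to 222 and 202 to 268 for myeloid cells, and 1728 to 1942 and 1141 to 1204 for erythroid cells. It was 292 to 341 and 235 to 370.4 for stromal cells, and 190 to 209 and 218 to 255 for epithelial cells. CD247 carried the T cell sum, at 1073 in normoxia and 1677 in hypoxia, and HBB the erythroid sum, at 1751 and 1125. Their part in the results was not tested.

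Light chain probe sets fell into a very bright kind and a kind at or under 307, and every very bright one was lambda or lambda-like. Of the 37 lambda and lambda-like probe sets, 8 lay between 6396 and 15663 on every array, and the other 29 reached at most 307. All 21 kappa probe sets stayed at or under 199.5, and 11 of them lay below the array median on every array and 6 above it. For the heavy chain, 35 of 59 probe sets were below the median on every array and 19 above it, up to 12403. Both probe sets annotated with IGHA1 alone read 1 to 5.34, near the bottom of the scale. Of those annotated with IGHA2, IGHA1 and IGH, 216318_at read 100.01, 89.97 and 101.2 in normoxia and 110.7, 108.2 and 119.2 in hypoxia, above the median on every array (log2 change 0.19, limma adjusted p = 0.136), and 217022_s_at stayed below it. In all, 65 members lay below the median on every array, 42 above it, and 2 were listed at exactly 1 on all arrays.

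**Figure D1:**
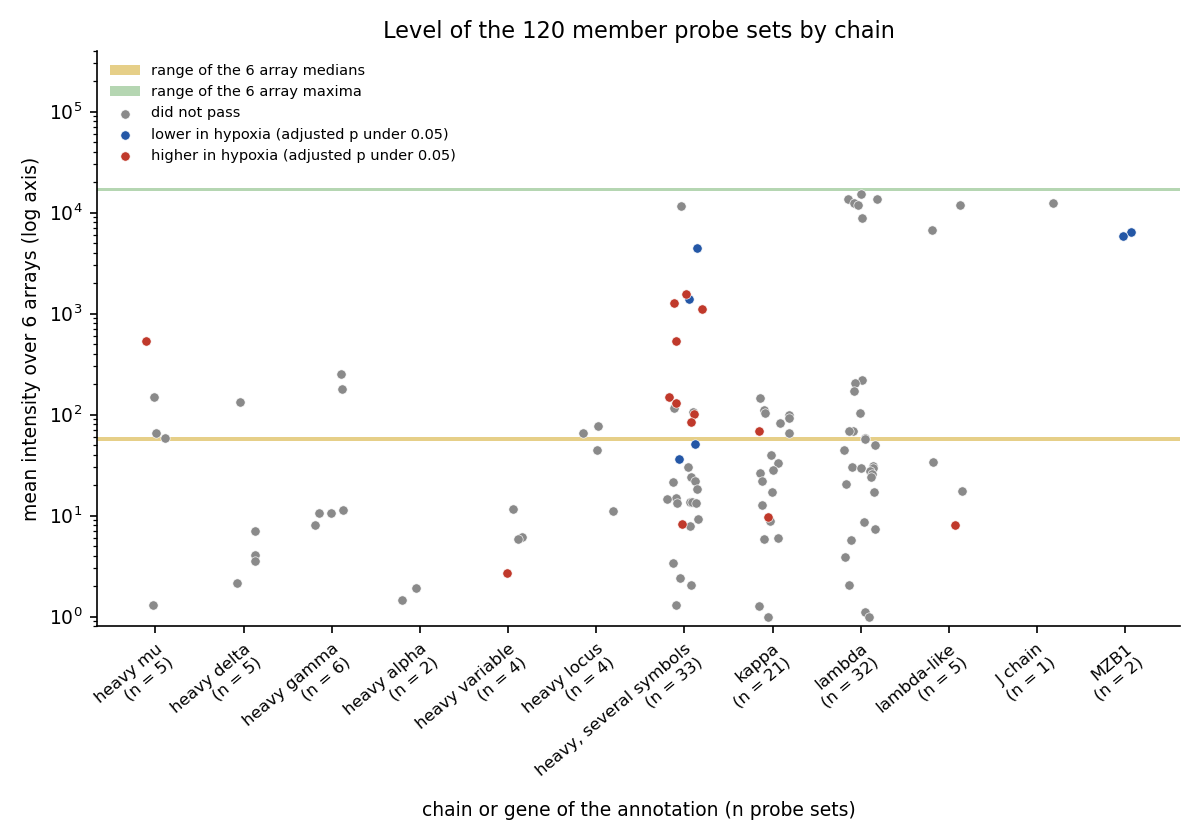
Mean intensity over the 6 arrays (log axis) of each of the 120 member probe sets, grouped by the chain or gene in the annotation; colour gives the limma call, and the bands give the range of the array medians (54.95 to 60.1) and of the array maxima (16277 to 17537). The 8 bright lambda and lambda-like probe sets lie between means of 6770 and 15153 and JCHAIN at 12438, all below the upper band, while all 21 kappa probe sets lie far below it.

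Brightness differed even between probe sets designed on the same sequence record. The annotation gives 9 records that each serve 2 members, and in 3 of them one member was among the 8 very bright ones and the other averaged under 70. For IGLL5, 217235_x_at averaged 6770 and 216566_at 17.3 over the 6 arrays. The other such pairs were 217148_x_at at 12363 beside 217138_x_at at 68.8, and 216984_x_at at 8831 beside 216708_x_at at 58.4. A low value therefore does not show that a chain was absent. An identifier ending in _x_at marks probes that also match other transcripts, and it was carried by 67 of the 120 members and by 7.70% of all probe sets.

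The lambda light chain, which this line is known to make, showed no called change in its bright probe sets. The IGLC1 probe set 209138_x_at read 15663, 14952 and 15496 on the normoxia arrays 0, 1 and 2 and 15012, 14734 and 15061 on the hypoxia arrays 0, 1 and 2. The groups overlapped, and the log2 change was -0.041 (limma adjusted p = 0.710, 95% confidence interval -0.20 to 0.12). These values stood at 89.3% to 92.2% of the highest intensity of their array. A further IGLC1 probe set, 214677_x_at, read 14326, 13890 and 13985 in normoxia and 13589, 13427 and 13313 in hypoxia. Here every hypoxia array was lower than every normoxia array, but by only 0.065 on the log2 scale (limma adjusted p = 0.525). The probe set 215121_x_at, annotated with IGLV1-44 and IGLC1, gave 14152, 13521 and 14008 against 13456, 13408 and 13264, likewise without overlap (limma adjusted p = 0.610).

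In the remaining bright lambda and lambda-like probe sets, the conditions overlapped. The probe set 217148_x_at (IGLJ3 and IGLC1) read 13136, 11572 and 12767 in normoxia and 12732, 11807 and 12163 in hypoxia, and 215379_x_at (IGLV1-44) read 12287, 11432 and 12008 against 11707, 11740 and 11621. For 215946_x_at, which carries the lambda-like pseudogene IGLL3P, the values were 12580.0, 11355 and 12160 against 11648, 11228 and 11621. For 216984_x_at they were 9331, 8668 and 9033 against 9346, 8399 and 8211. For 217235_x_at of IGLL5 they were 6972, 6740.4 and 6892 against 7081, 6540 and 6396. In both 216984_x_at and 217235_x_at the hypoxia arrays held the highest and the lowest of the 6 values. Over the 8 bright probe sets the log2 changes ran from -0.065 to -0.026, with none past the threshold in limma and 0 at an unadjusted p under 0.05. All 8 estimates were below 0, but they share probes and targets and are not independent, and with quantile normalization 2 of them were above 0.

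JCHAIN, which links antibodies into polymers, showed no called change. Its probe set 212592_at read 12376, 11982 and 12170 in normoxia and 13128, 12579 and 12390 in hypoxia. Every hypoxia array was above every normoxia array, but the closest pair differed by less than the spread within either group. The log2 change was 0.060 (limma adjusted p = 0.581, 95% confidence interval -0.10 to 0.22), and it was -0.0051 when each array was centred on its median. The values were at 70.2% to 80.7% of the array maximum.

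At the upper end of the arrays few probe sets of any kind were called. The mean of log2(intensity + 16) was 13 or more for 411 probe sets, of which 57 (13.9%) were called in either direction, and 9 of these 411 were members, with 0 called. Groups did not overlap for 58.2% of the 411 and for 3 of the 9 members, namely 214677_x_at, 215121_x_at and JCHAIN. Between 8 and 10 on that scale, 62.7% of all probe sets were called. Of the 411, 95% changed by at most 0.38 in either direction, against 1.62 between 8 and 10. No saturation flag was used here. On each array 169 to 198 probe sets lay within 1.5-fold of the array's highest value, among them 7 or 8 members. Whether the bright members were compressed by the upper limit of the scale was not tested. The confidence intervals of the 10 brightest members lay within -0.26 to 0.22, a range that applies to intensity and not to RNA if the scale is compressed there.

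**Figure D2:**
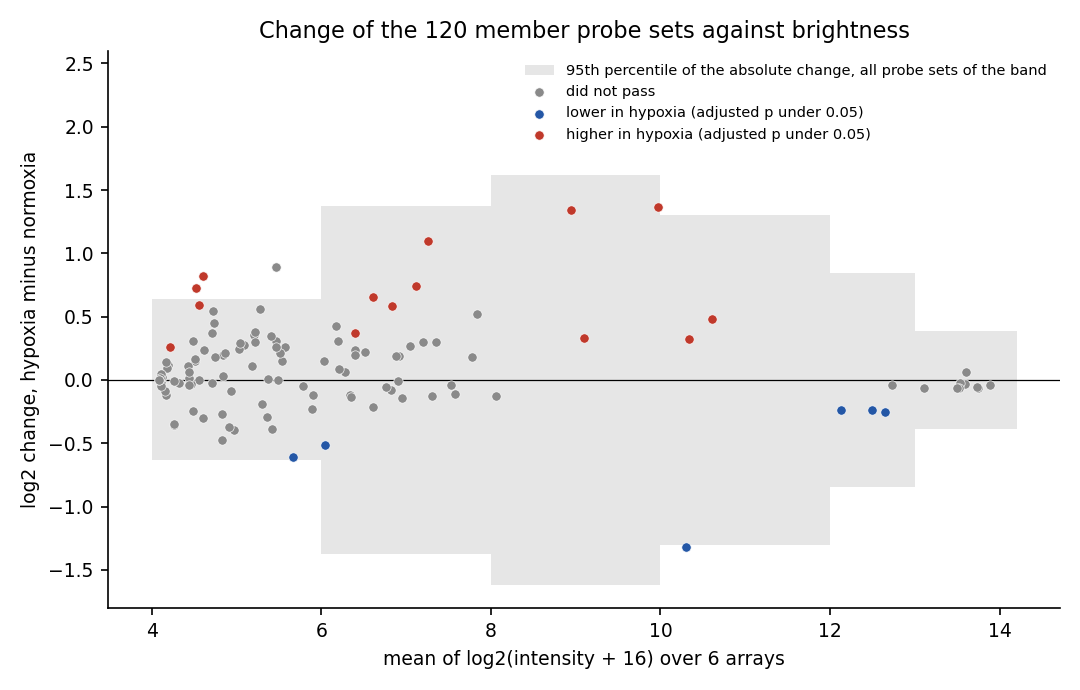
Log2 change, hypoxia minus normoxia, of the 120 member probe sets (points, coloured by the limma call) against the mean of log2(intensity + 16) over 6 arrays; the grey boxes reach the 95th percentile of the absolute change over all probe sets in each brightness band. The boxes narrow from 1.62 between 8 and 10 to 0.38 at 13 and over, where the 9 members there lie close to 0.

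Over all members, 14 were higher in hypoxia (11.7%) and 6 were lower (5%), against 15.5% and 15.2% of all probe sets. Groups did not overlap for 33 members (27.5%), against 42.5% of all probe sets. The median change was 0.054 over the members and 0.017 over all probe sets. Many members were low, and 69 had a mean intensity under 50. Among the 51 members at or above 50, 10 were higher and 5 lower, while 25.1% of all such probe sets were higher and 25.4% lower. Called members were therefore not more frequent than called probe sets in general. The count of higher members was 8 without normoxia array 0 and 8 without normoxia array 1, and the count of lower members was 3 without any 1 of hypoxia arrays 0, 1 and 2 and of normoxia arrays 0 and 2.

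MZB1, the ER helper of antibody assembly, was lower in hypoxia by a small amount, and its 2 probe sets gave nearly the same change. The probe set 223565_at read 6873, 6934 and 7158 in normoxia and 5588, 6044 and 5919 in hypoxia. Its mean went from 6988 to 5850.2 (n = 3 arrays each; log2 change -0.26, limma adjusted p = 0.0349, 95% confidence interval -0.43 to -0.087). The probe set 221286_s_at read 6271, 6004 and 6564 in normoxia and 5297, 5279.5 and 5348 in hypoxia, a change of -0.24 (limma adjusted p = 0.0429, 95% confidence interval -0.41 to -0.073). In both probe sets every hypoxia array was below every normoxia array. The 2 probe sets lie at a mean log2 of 12 to 13, where 28.3% of all probe sets were lower. The median absolute change of all probe sets there was 0.24, a size near that of the MZB1 changes. Both calls were lost when any 1 array or both arrays numbered 0 were left out, with the replicate number as a block, with quantile normalization and with a pseudocount of 1, at adjusted p-values up to 0.133, while the change stayed between -0.32 and -0.20.

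Heavy chain probe sets were called in both directions. Of 59, 11 were higher (18.6%) and 4 lower (6.78%) in hypoxia, with a median change of 0.14, against 15.5% and 15.2% of all probe sets. The annotation does not separate the classes: 33 of the 59 carry symbols of several heavy chain genes, and only 1 of the 11 that rose names a single one (IGHM), apart from a low probe set of the segment IGHV3-75. The largest rise was that of 211649_x_at (IGHM, IGHG1 and IGHA1), which read 549, 623 and 653 in normoxia and 1503, 1631 and 1644 in hypoxia. That is a 2.62-fold higher mean and a log2 change of 1.37 (limma adjusted p = 0.000173, 95% confidence interval 1.14 to 1.59), with wide separation of the groups. The IGHM probe set 211634_x_at rose to the same extent, from 285, 282 and 320.0 to 688, 835 and 798 (log2 change 1.34, limma adjusted p = 0.000257, 95% confidence interval 1.09 to 1.59). IGHM encodes the mu constant region, but this probe set also carries the _x_at ending, so its signal may include other transcripts. The 4 other probe sets annotated with IGHM alone were not called: 215949_x_at at 0.30, 212827_at at 0.087, 209374_s_at at 0.065 and 216491_x_at at 0.048 on the log2 scale (limma adjusted p from 0.0941 to 0.939).

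Smaller rises were seen in further probe sets that carry several heavy chain symbols. Among the brighter ones, 216510_x_at, annotated with IGHV3-23, IGHM, IGHG1 and IGHA1, read 1344, 1276 and 1318 in normoxia and 1725, 1917 and 1865 in hypoxia (log2 change 0.48, limma adjusted p = 0.00396). The probe set 211641_x_at read 1122, 1179.8 and 1122 against 1381, 1511 and 1400.5 (log2 change 0.32, limma adjusted p = 0.0179), and 217281_x_at read 449, 479.6 and 487 against 581, 624 and 587 (log2 change 0.33, limma adjusted p = 0.0165). In none of these did the groups overlap. The calls of 211641_x_at and 217281_x_at were lost without hypoxia array 1 (adjusted p = 0.0580 and 0.0570) and without both arrays numbered 0, and that of 211641_x_at also without normoxia array 0 or 2. Nearer the array median, 216541_x_at (IGHM and IGHG1) read 86.0, 71.8 and 111 against 170.1, 234 and 223 (log2 change 1.10, limma adjusted p = 0.00471). The probe sets 216558_x_at and 1561937_x_at went from 67.5 to 89.5 up to 113 to 129.6, and from 58.9 to 65.9 up to 94.7 to 122 (log2 changes 0.58 and 0.66, limma adjusted p = 0.00919 and 0.00420).

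**Figure D3:**
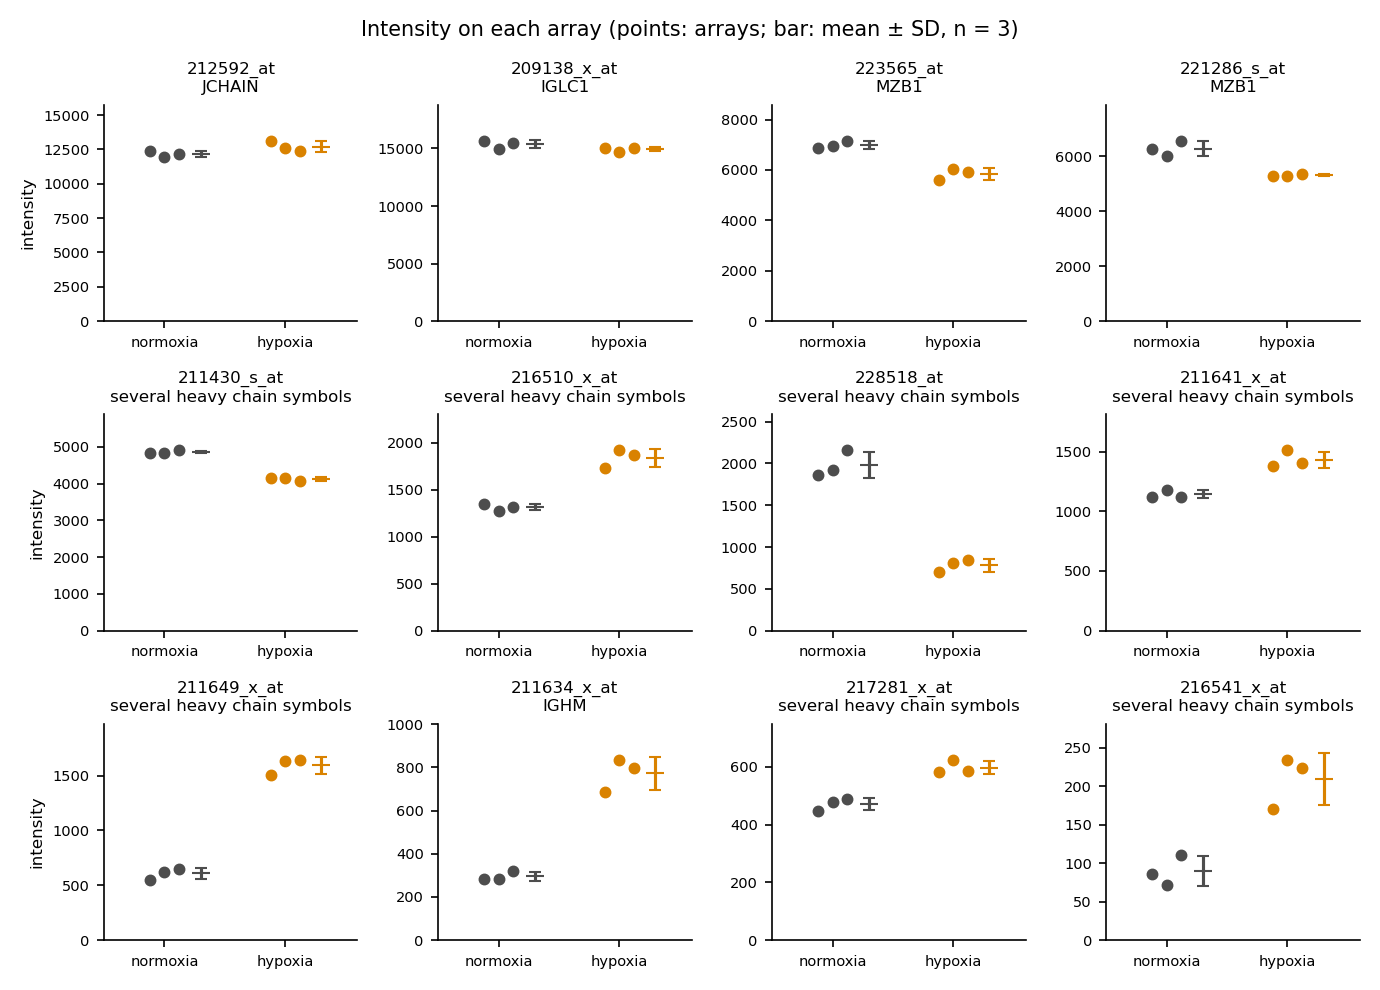
Intensity (linear axis from 0) on each of the 3 normoxia and 3 hypoxia arrays for 12 named probe sets, with the mean ± SD beside the points. JCHAIN and the IGLC1 probe set were not called, though every hypoxia array of JCHAIN was slightly above every normoxia array. Both MZB1 probe sets are slightly lower in hypoxia. The probe set 228518_at drops from 1866 to 2157 down to 697 to 846, and 211649_x_at climbs from 549 to 653 up to 1503 to 1644.

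The largest fall was also in the heavy chain. The probe set 228518_at, annotated with IGHM, IGHG1 and the MIR8071 genes, read 1866, 1920.1 and 2157 in normoxia and 697, 812 and 846 in hypoxia. Its mean in hypoxia was 0.396 of that in normoxia (log2 change -1.32, limma adjusted p = 0.000304, 95% confidence interval -1.58 to -1.06). The probe set that shares the MIR8071 annotation, 211430_s_at, carries IGHM, IGHG2 and IGHG1 and read 4828, 4844 and 4904 against 4143, 4165 and 4062. Its groups did not overlap either, but its fall was smaller, at -0.24 (limma adjusted p = 0.0331, 95% confidence interval -0.39 to -0.083), an interval that does not reach that of 228518_at. The difference itself was not tested. The call of 211430_s_at was lost when any 1 array or both arrays numbered 0 were left out, and with the replicate number as a block. Both others that fell lay near or below the array median: 217198_x_at (IGHG1, IGHD, IGHA2 and IGH) went from 60.9 to 66.3 down to 37.5 to 41.6 (log2 change -0.51, limma adjusted p = 0.00251), and 217217_at from 42.9 to 54.4 down to 20.9 to 29.4 (log2 change -0.61, limma adjusted p = 0.00862).

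The brightest heavy chain probe set was not called in either direction. The probe set 211868_x_at, which carries 8 heavy chain symbols including those of alpha, gamma, mu and delta, read 12403, 11246 and 11911 in normoxia and 12122, 10893 and 11035 in hypoxia. The groups overlapped (log2 change -0.063, limma adjusted p = 0.641, 95% confidence interval -0.26 to 0.13). These values stood at 66.5% to 74.5% of the array maximum, and whether the scale was compressed there was not tested. The 6 probe sets whose immunoglobulin symbol was a gamma chain, 1 of which also carries SKAP2, were not called, the brightest being 216892_at with 235, 247 and 310.4 against 243, 237.0 and 237.1. The delta chain, the marker of naive B cells, had 5 probe sets, none of which passed, and the brightest, 214973_x_at, read 93.8 to 131 in normoxia and 121 to 175 in hypoxia. A mean intensity under 50 was found for 4 of the 6 gamma and 4 of the 5 delta probe sets. Of all probe sets under 50, 8.13% were called.

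There were 23 heavy chain probe sets at a mean intensity of 50 or more, and every called rise among them had the _x_at ending. Of the 14 with the _x_at ending, 9 were higher and 1 lower, with a median change of 0.40, and of the other 9, 0 were higher and 2 lower, with a median change of -0.11. For the 0 higher among these 9, limma gave 2 at an unadjusted p under 0.05, both of them falls. Over all 2656 probe sets with that ending and brightness, 27.1% were higher and 16.8% lower. Over all 29062 probe sets of that brightness, with any ending, 25.1% were higher and 25.4% lower. With dim probe sets included, 10 of 29 heavy chain probe sets with the ending were higher and 1 lower. Over all 4207 probe sets with the ending, 18.8% were higher and 11.6% lower. Of the 30 heavy chain probe sets without it, 1 was higher and 3 lower, against 15.5% and 15.2% of all probe sets with any ending. The difference between these kinds was seen in the data and was not tested, and probe sets that share cross-matching probes are not independent.

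**Figure D4:**
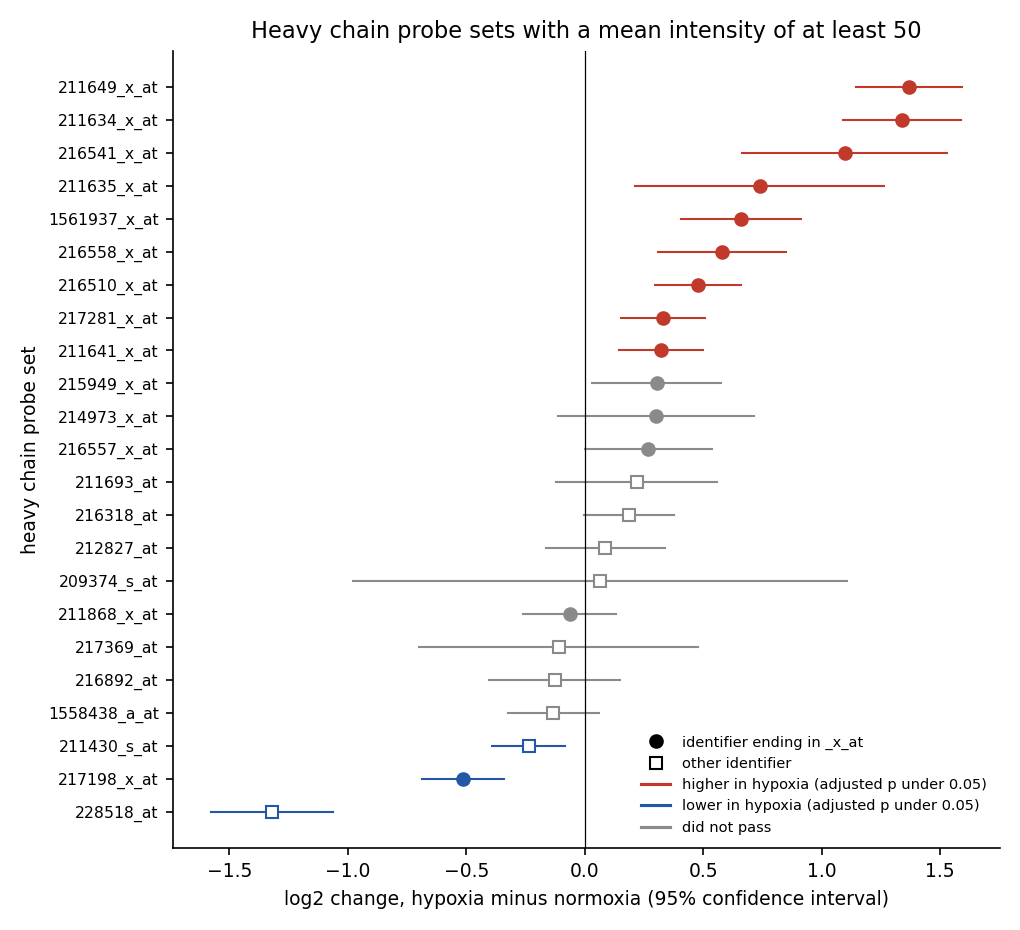
Log2 change, hypoxia minus normoxia, with its 95% confidence interval, for the 23 heavy chain probe sets with a mean intensity of at least 50; filled circles mark identifiers ending in _x_at and open squares the others. All 9 probe sets called higher are circles, and the largest fall, 228518_at at -1.32, is a square.

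Of the 21 kappa probe sets, 2 were higher and 0 lower in limma, with 2 at an unadjusted p under 0.05. Their median change was -0.047. The share called was 9.52%, against 30.7% of all probe sets. A mean intensity under 50 was found for 13 of the 21, and 8.13% of all probe sets that dim were called. The IGK probe set 221651_x_at read 1.76, 1.26 and 4.01 in normoxia and 26.1, 11.6 and 13.3 in hypoxia (limma adjusted p = 0.0141), all below the array median. Its call was lost without normoxia array 0 or 1. The IGLL5 probe set 234364_at was similar, with 1, 2.34 and 6.33 against 9.90, 11.6 and 17.6 (limma adjusted p = 0.0243), while the bright probe set of IGLL5 was not called. The call of 234364_at was lost in 5 of 13 alternatives, among them without hypoxia array 1 or 2 or normoxia array 0 or 1. The 4 other called members, outside the rule for named members, were 211635_x_at at 0.74, the IGKC probe set 214669_x_at at 0.37, 217360_x_at at 0.72 and 217083_at of IGHV3-75 at 0.26, with limma adjusted p-values of 0.0366 to 0.0478. The surrogate light chain gene IGLL1 read 25.9, 25.6 and 32.0 in normoxia and 72.9, 31.5 and 17.8 in hypoxia, so its hypoxia arrays spread more widely than the groups differed (limma adjusted p = 0.655). Among the less bright lambda probe sets, 215035_at of IGLV6-57 read 172, 157 and 198 against 206, 269.9 and 307 and did not pass (log2 change 0.52, limma adjusted p = 0.0559).

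Beside the members, genes that act on antibody along its path were read at the brightest single-symbol probe set of each gene. Over all 19775 genes read in that way, 15.6% were higher and 19.1% lower, with a median change near 0. Transcription and RNA processing genes of immunoglobulin were divided, with 6 of 21 higher and 5 lower and a median of 0.19. PAX5, a B cell regulator that is normally silenced in plasma cells, went from 85.8 ± 2.37 to 303 ± 21.0 (log2 change 1.65), EBF1 from 99.4 to 266 (1.28) and POU2F2, which binds the octamer, from 525 to 1183 (1.15). CSTF2, a cleavage factor linked to the choice of the secreted heavy chain end, fell from 735 ± 32.3 to 237 ± 28.7 (log2 change -1.58). The 4 had limma adjusted p-values of at most 0.000423. The plasma cell regulators did not pass: XBP1 was at 0.22, PRDM1 at 0.12, IRF4 at 0.056, the octamer coactivator POU2AF1 at 0.19 and ELL2, which favours the secreted heavy chain, at -0.19 (limma adjusted p from 0.0564 for XBP1 to 0.673 for IRF4). For XBP1 and POU2AF1 every hypoxia array was above every normoxia array, while the groups of PRDM1, IRF4 and ELL2 overlapped. XBP1 and POU2AF1 lie at a mean log2 of 13 or more. Of all probe sets there, 13.9% were called and 58.2% had groups without overlap. The count of genes higher was 10 with an intensity trend, a pseudocount of 64, quantile normalization or without probe sets under a mean of 50. The count of genes lower was 2 with quantile normalization and without normoxia array 2, and 3 without hypoxia array 1, hypoxia array 2 or normoxia array 1.

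More genes that fold antibody in the ER fell than rose, in the group to which MZB1 belongs by its function. Of 23 measured, 12 fell, 3 rose and 8 did not pass, with a median of -0.34. HSPA5, the chaperone BiP that holds unassembled heavy chains, went from 8925 ± 189 to 6060.4 ± 173 (log2 change -0.56, limma adjusted p = 0.00136), and HSP90B1 from 7480 to 5439 (-0.46). CRELD2 and MANF fell by 1.30 and 1.16, and the oxidase gene ERO1B by 0.86, while its paralogue ERO1A rose by 1.09. For entry into the ER, 8 of 24 genes fell and 1 rose, with a median of -0.13. A mean log2 of 10 to 13 held 17 of the 24 entry genes and 17 of the 23 folding genes, and of all probe sets 34.2% fell at 10 to 12 and 28.3% at 12 to 13. The share of entry genes that fell was near these shares. The signal recognition particle receptor gene SRPRB fell from 3491 ± 67.3 to 1198 ± 43.6 (log2 change -1.53, limma adjusted p = 6.47e-05), the channel gene SEC61A1 fell by 0.61 and SRP54 by 0.48, whereas SEC61A2 rose from 106 to 257 (1.16). The count of ER entry genes that fell was 4 with quantile normalization and without any 1 of hypoxia arrays 1 and 2 and normoxia arrays 0, 1 and 2, 5 with a pseudocount of 1 or the replicate block, and 13 with an intensity trend.

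Transport from the ER to the Golgi had no common direction, with 5 of 25 higher and 7 lower and a median of -0.086. The coat genes SEC23A and SEC24A rose by 0.46 and 0.43, and PREB and BET1 fell by 0.61 and 0.71. Among receptors of immunoglobulin and recombination genes, 0 of 20 were higher and 3 lower in limma (3 at an unadjusted p under 0.05), with 10 below the array median on every array. FCRLA fell from 1272 to 324 (log2 change -1.92, limma adjusted p = 5.43e-05), and FCRLB and DNTT fell at low levels, by 0.44 and 1.04. The B cell receptor partners CD79A and CD79B were at 93.1 and 303 in normoxia and 104 and 340.4 in hypoxia and did not pass (limma adjusted p = 0.453 and 0.145).

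**Figure D5:**
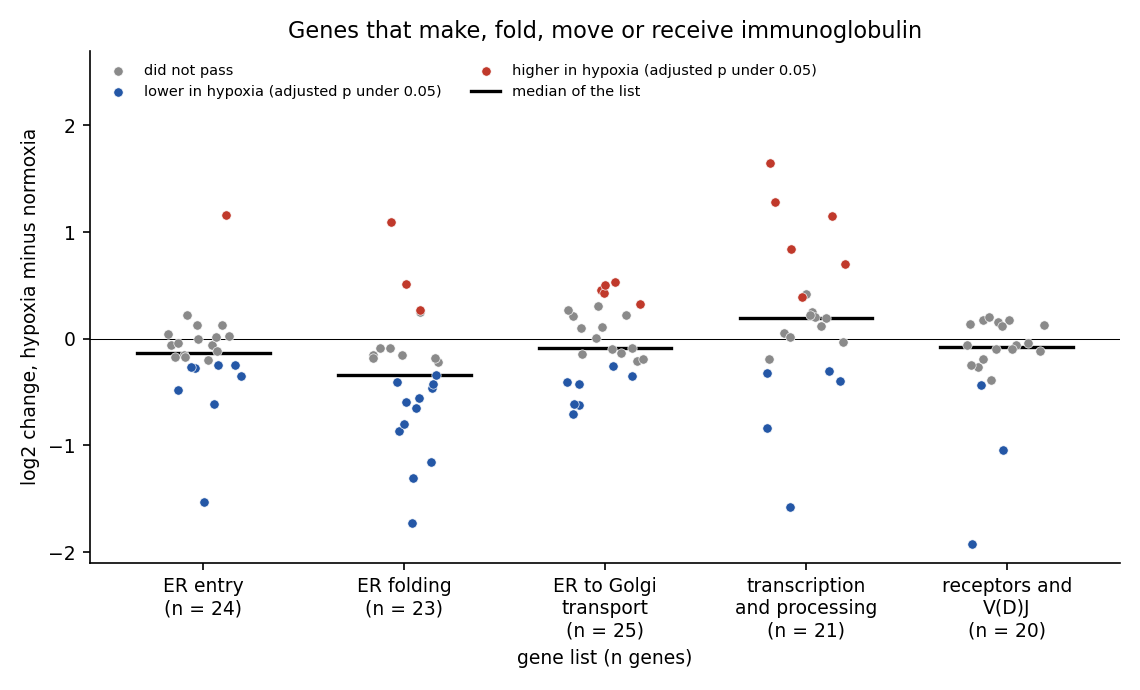
Log2 change, hypoxia minus normoxia, of each gene in 5 lists of genes that act on immunoglobulin, read at the brightest single-symbol probe set; colour gives the limma call and the black bar the median of the list. The ER folding list has the lowest median, at -0.34, and the transcription and processing list the highest, at 0.19.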

How the data were processed

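RNA came from an RNeasy isolation and was hybridised as biotinylated cRNA in 1 colour, per the labels' protocols. The deposited table gives 1 linear intensity per probe set and array; the authors' background correction, probe summary and array scaling are not given in the sources read for this work. Of 54613 probe sets, 41091 carried 1 symbol, 1801 several and 11721 none in the platform annotation; 41037 single symbols were looked up again in RefSeq by gene identifier. Groups came from the condition label. Precision is limited by having 3 arrays a condition. All probe sets were fitted in limma 3.58.1 (R 4.3.3) on log2(intensity + 16), with lmFit and eBayes, two-sided, no covariate, threshold 0.05. The fit was tested on simulated data.

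Named were all JCHAIN and MZB1 probe sets, the 10 brightest members, up to 10 called members per direction with the smallest adjusted p, up to 4 genes per list by adjusted p, and 9 preset genes. Other members given with values (1 or 2 per chain) were chosen after their values were seen. Members and lists were chosen with earlier results of these data known. Alternatives covered the pseudocount, scaling, dim probe sets, an intensity trend, the replicate block and arrays left out. Deviations of same-numbered arrays correlated at 0.21, 0.0082 and 0.19, and those of differently numbered arrays at -0.23 to 0.093. The numbers were not taken as pairs in the main fit and served as a block in 1 alternative. Whether the arrays numbered 0 share a batch was not tested.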

Additional observations from a re-analysis of the deposited data

How the results depend on the processing

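The count of members higher in hypoxia, 14, was 8 to 16 with 1 array left out and 4 among members with 1 gene symbol. The count of members lower, 6, was 3 to 4 with 1 array left out, 3 without both arrays numbered 0, 2 among members with 1 gene symbol and 3 with the replicate number as a block, where 17 were higher. Other settings gave 10 to 14 higher and 4 to 6 lower. For the named members, 192 values under alternatives other than leaving out 1 array stayed called or stayed uncalled as in the main fit, and 13 lost the call. With 1 array left out, 128 stayed as in the main fit and 28 lost the call. Uncalled members were counted as unchanged even where the sign of the change differed, as for JCHAIN (-0.0051 to 0.089 over the alternatives). The calls of 211634_x_at, 211649_x_at and 228518_at held under all 14 alternatives. Median centring moved the median change of all probe sets from 0.017 to -0.048. For the gene lists, 128 counts stayed within 1.5 times the main count and 22 did not, among them 1 ER folding gene higher when all probe sets of a gene were averaged. The number of arrays, 3 a condition, limits the precision. The cause of the lost calls was not tested.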
